A study of Mus musculus with 108 samples.

Results

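BTB-Kelch proteins are the substrate adaptors of Cul3, the scaffold of a family of ubiquitin ligases. The BTB domain of an adaptor binds Cul3 and its Kelch repeats hold the substrate, so that each adaptor brings the ligase to its own set of proteins. Known substrates and partners include actin filaments, WNK kinases, mitotic kinases, kainate receptors and proteins of the sarcomere, and several of the adaptors were first studied in neurons or in muscle. The family was taken as 47 mouse genes (Klhl, Kbtbd, Ipp, Enc1 and Ivns1abp genes, without Keap1), and 46 of them had a row among the 53465 genes counted. Klhl17 was not analysed here. No measured value entered the rule that chose the genes, but they were chosen with earlier results of these data known.

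RNA was sequenced of 36 mice from the cortex (abbreviated CX), the hippocampus (HIP) and the cerebellum (CB), and each library came from 1 region of 1 mouse. At E17.5, at P7 and in adults (P35 in the labels), 6 mice were WT and 6 were Cul3+/-. The Cul3+/- mice carried on 1 allele a 1-bp frameshift insertion in exon 6 of Cul3, made by CRISPR/Cas9 in C57BL/6N embryos, and descended from 1 founder that was bred to WT mice for several generations. Any other change that came with this founder cannot be told apart from the loss of 1 Cul3 allele. All mice shared the background that the labels write as C56Bl/6N, none was treated, and sex was not given in the labels. For 2 adult mice the labels and a table of the study gave opposite genotypes. Their 6 libraries were left out, which left 102 libraries from 34 mice, with 5 WT and 5 Cul3+/- mice in the adult groups.

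Libraries held 15126114 to 44411282 counts. Cul3 itself stood at 50.2% (P35 HIP) to 61.0% (P35 CB) of the WT mean in the Cul3+/- libraries of the 9 period-by-region datasets, and the genotypes did not overlap in any of them. The region labels were checked against markers. Emx1, a marker of projection neurons of the cortex and hippocampus, had WT group means of 7.78 to 47.96 CPM (counts scaled to a common library total) in CX and HIP and of 0.0311 to 0.0497 CPM in CB. Emx1 is 1 of 6 such markers, whose sum had WT medians of 43.1, 90.6 and 451.5 CPM in CB from E17.5 to P35. In CX and HIP the medians of this sum were 535.2 to 1319 CPM. Slc17a7, of the same 6, did not mark the forebrain alone, with 472.6 CPM in P35 CB. The summed granule cell markers had medians of 1154 to 2479 CPM in CB and of at most 438 CPM in CX and HIP. The choroid plexus markers Ttr, Kl, Folr1 and Clic6 summed to over 100 CPM in 22 libraries, 9 WT and 13 Cul3+/-. At E17.5, the mice whose names carry the prefix S3 in the labels stood apart. In WT CX their dividing-cell markers summed to 676 and 708 CPM, against 274 to 388 CPM in the 4 other mice. The Cul3+/- S3 libraries of CX stood apart likewise (738 and 758 CPM against 311 to 416 CPM). In HIP the S3 libraries of both genotypes were higher too. In CB they were lower, in WT at 564.6 and 597.4 CPM against 654.9 to 755 CPM. E17.5 results are given without these 4 S3 mice where that ended a call.

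The DNA before the start of transcription is shown for the 3 members with the widest range of levels among those that passed a filter on low counts in at least 1 dataset and are in the promoter table used, Klhl33, Klhl35 and Klhl40, and for Klhl12, whose level hardly changed. The sequences are from RefSeq (GRCm38.p6), read 5′ to 3′ on the gene's strand from 250 to 31 bases before the start, and CG pairs are in capitals. Klhl33 (chr14:50897514-50897733, minus strand) and Klhl35 (chr7:99465754-99465973, plus strand) are shown over a stretch with no other annotated gene. The stretch of Klhl40 (chr9:121777357-121777576, plus strand) overlaps an exon of Gm47108 on the minus strand, and that of Klhl12 (chr1:134455281-134455500, plus strand) an exon of Gm37935 on the minus strand.
Klhl33: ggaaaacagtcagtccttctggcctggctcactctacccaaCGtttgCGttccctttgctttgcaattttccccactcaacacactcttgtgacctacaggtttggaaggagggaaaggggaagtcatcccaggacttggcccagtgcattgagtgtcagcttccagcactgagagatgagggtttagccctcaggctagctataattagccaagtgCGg
Klhl35: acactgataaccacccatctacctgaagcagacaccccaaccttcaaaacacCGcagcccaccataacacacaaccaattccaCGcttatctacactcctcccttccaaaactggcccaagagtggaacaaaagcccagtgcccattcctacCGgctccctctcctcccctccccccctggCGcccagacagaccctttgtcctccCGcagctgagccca
Klhl40: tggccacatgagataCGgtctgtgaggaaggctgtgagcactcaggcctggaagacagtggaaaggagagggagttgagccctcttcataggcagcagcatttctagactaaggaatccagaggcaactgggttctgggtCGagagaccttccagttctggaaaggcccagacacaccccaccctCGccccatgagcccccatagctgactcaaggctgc
Klhl12: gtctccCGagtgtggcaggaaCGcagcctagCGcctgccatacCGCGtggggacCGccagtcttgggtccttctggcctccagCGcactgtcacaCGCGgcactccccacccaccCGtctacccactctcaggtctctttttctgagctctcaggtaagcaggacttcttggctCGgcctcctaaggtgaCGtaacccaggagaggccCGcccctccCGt
The stretches of Klhl33 and Klhl40 hold 3 CG pairs each, that of Klhl35 holds 5 and that of Klhl12 holds 14.

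Levels are given as CPM after TMM scaling of the library sizes. A gene entered a test when about 10 counts or more were reached in enough libraries of that dataset. By this filter 37 to 42 members were testable in each of the 9 datasets, 36 in all 9 and 8 in some of them (Klhl10, Klhl14, Klhl33, Klhl34, Klhl38, Klhl40, Klhl41 and Kbtbd12). Klhl30 and Klhl31 passed in none, with WT group means of at most 0.223 and 0.176 CPM. Exons of 10 members overlap a gene on the opposite strand (Klhl9, Klhl14, Klhl21, Klhl32, Klhl38, Klhl40, Kbtbd2, Kbtbd4, Kbtbd11 and Ivns1abp), and those of Klhl13 and Klhl15 a gene on the same strand. How strand was set in the counting is not given in the sources used here, so reads of the 10 members and their partners cannot be told apart. Per kilobase of exon, the highest WT levels averaged over the 9 groups belonged to Enc1 (115.2 CPM per kb), Klhl9 (55.2), Ivns1abp (46.95), Klhl7 (37.4) and Klhl23 (34.8). Among the 36 members that passed in all datasets, 14 had a highest WT group mean less than 2 times the lowest (Klhl8, Klhl9, Klhl12, Klhl15, Klhl20, Klhl22, Klhl24, Klhl28, Klhl42, Kbtbd2, Kbtbd4, Kbtbd7, Kbtbd8 and Ipp), and 22 had a wider range. The narrowest ranges were 1.16-fold for Kbtbd4, 1.28-fold for Klhl12 and 1.41-fold for Klhl9, and the widest over the 44 members that passed in at least 1 dataset were 143.8-fold for Klhl33 and 129.5-fold for Enc1. No group was the peak of most members. P35 HIP held the highest mean of 9 members, E17.5 CX of 8, P7 CX and P35 CB of 6 each, and the other 5 groups of 3 or 4 each. Summed over the 46 members, the WT mean went from 3570 ± 86.4 CPM (SD, n = 6) in E17.5 CX down to 2038 ± 123 CPM (SD, n = 6) in P7 CB.

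**Figure D1:**
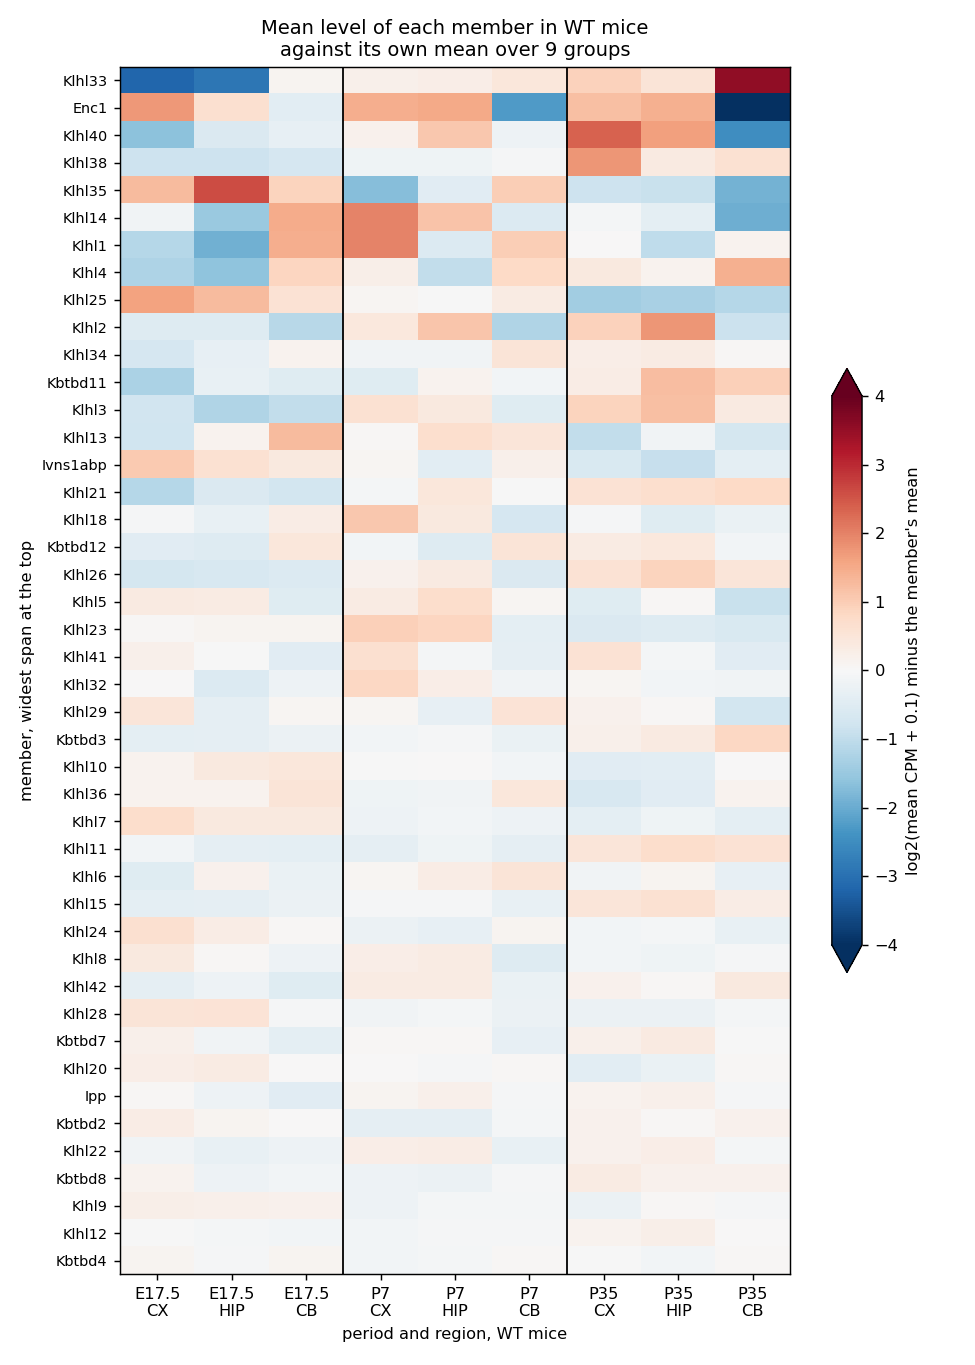
Colour shows the WT group mean of each member, as log2(CPM + 0.1) minus the member's own mean over the 9 period-by-region groups and limited to 4 in either direction. Rows are the 44 members that passed the filter in at least 1 dataset and columns are the 9 groups. Enc1 is palest or bluest in the CB columns, Klhl33 is reddest in P35 CB, and most rows vary little.

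The first question was where in the WT brain each adaptor was expressed. A member was called when the adjusted p was at most 0.1 and the fold at least 2 in edgeR's quasi-likelihood test, with Benjamini-Hochberg adjustment over all genes tested and mouse as a block for regions. The tests compare tissue pieces, in which fewer cells of a type and less RNA per cell cannot be told apart. Over the 12 comparisons 78 calls fell on 20 members, and 26 members were never called. Of these 26, Klhl30, Klhl31 and Klhl34 were tested in 0 of the 12 comparisons, Kbtbd12 in 2 and Klhl41 in 4. The share of all genes called at least once was not counted. In 59 of the 78 calls the lower side passed the filter by itself, and in the other 19 it did not. In 12 of these 19 another group of the fit also passed, and in 7 the member entered the test only through the side where it was higher and so had to differ. These 7 are named below and are given as levels rather than as support for a difference. They remain in the counts of calls and in the ranges of adjusted p.

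Between CB and the mean of CX and HIP, 11 members were called in at least 1 period and 4 in all 3. Of these, Enc1 was lower in CB and Klhl4 higher in each. The calls of Klhl14 and Klhl35 changed sign. Klhl14 at E17.5 and P35 and Klhl35 at P35 entered through the higher side only. The sign change of Klhl14 therefore rests on such a call and is no support for a reversal. At E17.5, 5 of 40 members were higher in CB, where 10.2% of all genes were, and 2 were lower, where 4.88% of all genes were. Klhl33 (log2 difference 3.57 ± 0.30 SE), Klhl1 (3.20 ± 0.22) and Klhl14 (2.89 ± 0.48) were the highest in CB, followed by Klhl4 and Klhl13, and Enc1 (−1.59 ± 0.12) and Klhl35 (−1.01 ± 0.15) were the lower ones. Klhl33 and Klhl14 entered this test through CB only. Klhl35 in CB overlapped CX and lay below every HIP library. At P7, 2 of 41 members were higher in CB (12.6% of all genes) and 5 lower (16.3%). Klhl35 (2.31 ± 0.14) and Klhl4 (1.23 ± 0.05) were higher, and Enc1 (−3.69 ± 0.07), Klhl14 (−2.20 ± 0.20) and Klhl2 (−1.93 ± 0.07) were the lowest, with Klhl18 and Klhl23. At P35, 2 of 41 were higher in CB (11.2% of all genes) and 5 lower (15.2%). Klhl33 (2.86 ± 0.08) and Klhl4 (1.17 ± 0.09) were higher, and Enc1 (−6.59 ± 0.13), Klhl40 (−5.30 ± 0.21) and Klhl2 (−2.19 ± 0.05) were the lowest, with Klhl14 and Klhl35. Klhl40, Klhl14 and Klhl35 entered it through the forebrain regions only. The share of members called was near that of all genes or below it in the 3 periods. The median member differed between CB and the forebrain regions by 0.01, −0.05 and −0.09 on the log2 scale at E17.5, P7 and P35, and the median gene by −0.01, 0.06 and 0.03.

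HIP and CX differed in fewer members. At E17.5, Klhl35 (1.37 ± 0.17) and Klhl40 (1.25 ± 0.32) were higher in HIP and Enc1 (−1.06 ± 0.13) lower, against 8.92% and 3.35% of all genes. At P7, Klhl35 (1.40 ± 0.19) was higher in HIP and Klhl1 (−2.59 ± 0.13) and Klhl4 (−1.24 ± 0.06) lower, against 4.24% and 6.42% of all genes. At P35 no member was higher in HIP, where 4.8% of all genes were, and Klhl38 (−1.88 ± 0.30) and Klhl1 (−1.08 ± 0.14) were lower, where 6.97% of all genes were, and Klhl38 entered through CX only. The adjusted p of these 8 HIP calls ran from 7.7e-10 to 0.0073 in edgeR's quasi-likelihood test, and that of the 21 CB calls from 7.2e-16 to 0.00065. Without the S3 mice, 2 of the E17.5 calls fell short of 2-fold, Klhl35 in CB (−0.79) and Enc1 in HIP (−0.94, and −0.998 without WT replicate 4 alone), and Klhl14 in CB went from 2.89 to 1.97. The Klhl35 call in CB also fell short of 2-fold without the WT mouse of replicate 1 (−0.99), 3 (−0.94) or 4 (−0.90) alone, and the Klhl40 call in HIP without that of replicate 5 (0.93). The Klhl1 call in HIP at P35 ended without WT replicate 3 (−0.98) and without the libraries rich in choroid plexus markers (−0.90).

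The periods were then compared within each region. From E17.5 to P7 in CX, 9 of 42 members rose (22.9% of all genes) and 3 fell (14.5%). Klhl33 (3.72 ± 0.20), Klhl1 (3.14 ± 0.33) and Klhl14 (2.20 ± 0.45, and 1.98 to 2.86 with 1 WT mouse left out) rose the most. Klhl40, Klhl38, Klhl4, Klhl3, Klhl18 and Klhl21 rose too, and Klhl35 (−3.29 ± 0.25), Klhl25 (−1.58 ± 0.09) and Ivns1abp (−1.04 ± 0.07) fell. Klhl38 had a median of 3 counts per P7 library and entered the CX test through P35 only. In HIP, 6 of 40 rose (17.8% of all genes) and 3 fell (13.1%). Klhl33 (3.32 ± 0.35), Klhl14 (2.89 ± 0.40) and Klhl40 (1.76 ± 0.24) led those that rose, with Klhl2, Klhl3 and Klhl1, and those that fell were again Klhl35 (−3.19 ± 0.28), Klhl25 (−1.31 ± 0.13) and Ivns1abp (−1.04 ± 0.07). In CB no member rose, although 10% of all genes did, and Klhl14 (−2.19 ± 0.24), Enc1 (−1.85 ± 0.08) and Klhl18 (−1.004 ± 0.081) fell, with 10.1% of all genes.

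From P7 to P35 CB held the most calls, among the members as among all genes. In CX, Klhl38 (2.80 ± 0.35), Klhl40 (2.29 ± 0.21) and Klhl35 (1.04 ± 0.28) rose, 3 of 42 members against 10.3% of all genes, and Klhl38 entered through P35 only. Klhl14 (−2.13 ± 0.47), Klhl1 (−1.97 ± 0.32) and Klhl23 (−1.52 ± 0.11) fell the most among 6 members that fell in CX (11.6% of all genes), the others being Klhl25, Klhl18 and Klhl13. In HIP, Kbtbd11 (1.1 ± 0.06) and Klhl4 (1.13 ± 0.22) rose, 2 of 40 members against 7.95% of all genes, and Klhl14 (−1.60 ± 0.38), Klhl23 (−1.33 ± 0.09) and Klhl25 (−1.25 ± 0.14) fell, against 10.4%. In CB, 4 of 41 members rose (16.6% of all genes), which were Klhl33 (3.15 ± 0.15), Kbtbd3 (1.11 ± 0.08), Kbtbd11 (1.07 ± 0.06) and Klhl26. The 7 that fell in CB (17.7% of all genes) were led by Klhl35 (−3.22 ± 0.22), Enc1 (−3.01 ± 0.10) and Klhl40 (−2.98 ± 0.28), and included Klhl14, Klhl25, Klhl29 and Klhl13. The adjusted p of the 49 period calls was at most 0.0112 in edgeR's quasi-likelihood test. Without the S3 mice, 4 of the calls to P7 fell just short of 2-fold, Klhl18 (0.95) and Klhl21 (0.93, and 0.96 without WT replicate 3 alone) in CX, Ivns1abp in HIP (−0.98) and Klhl18 in CB (−0.99). Klhl18 in CB also lost its call without WT replicate 1, 3 or 6 of E17.5 or 1, 2 or 6 of P7 (−0.955 to −0.999), and without the libraries rich in choroid plexus markers (−0.951). From P7 to P35 in CX, Klhl35 lost its call without replicate 1, 3 or 4 of P7 or 3 or 6 of P35 (0.875 to 0.978), and Klhl13 without replicate 2 of P7 (−0.869) or 4 of P35 (−0.994). Each of these fits kept an adjusted p of at most 0.0158 in edgeR's quasi-likelihood test, and the fold alone fell under 2.

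Enc1, an actin-binding protein of differentiating neurons, had the highest level of the family per kilobase and lay on chromosome 13 (GRCm38 97241105-97253034, plus strand). In WT CX the lowest, median and highest of the 6 E17.5 libraries were 871, 988 and 1121 CPM, those of the P7 libraries were 753, 830 and 870 CPM, and the 5 P35 libraries held 625.2, 749.0, 598.7, 789.2 and 663.2 CPM. In HIP these were 307.9, 493.6 and 559.9 CPM at E17.5, then 744, 842 and 972 CPM at P7, and 816.8, 781.0, 894.2, 708.7 and 773.0 CPM at P35. In CB they were 203.8, 210.6 and 261.1 CPM at E17.5, then 56.9, 62.1 and 68.5 CPM at P7, and 6.62, 6.97, 9.74, 7.75 and 7.28 CPM at P35. CB was below CX and HIP in every library of each period, and the 3 periods did not overlap in CB. The CB-to-forebrain difference was −6.59 ± 0.13 at P35 (adjusted p = 1.4e-13, edgeR's quasi-likelihood test).

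Klhl1 and Klhl4 are close paralogues, and Klhl1 is known as an actin-binding protein of neurons. Klhl1 in CX had a lowest, median and highest WT level of 0.734, 1.99 and 4.62 CPM at E17.5 and of 16.1, 19.0 and 24.5 CPM at P7, and the P35 libraries held 5.33, 5.94, 4.28, 5.33 and 3.92 CPM. In HIP it stayed between 0.796 and 4.90 CPM in all 17 WT libraries, and in CB it went from 10.3 to 17.1 CPM at E17.5 to between 5.01 and 5.67 CPM at P35. The P7 CX libraries were above those of every other group except E17.5 CB, with which they overlapped. Klhl4 in CB had a lowest, median and highest level of 24.4, 28.8 and 38.2 CPM at E17.5 and of 25.2, 28.5 and 29.4 CPM at P7, and the P35 libraries held 47.1, 44.4, 34.1, 42.4 and 48.0 CPM. In HIP it went from 2.52 to 7.46 CPM at E17.5 to between 13.9 and 20.1 CPM at P35. Klhl4 in CB exceeded the HIP libraries in every period. CX stood nearer to CB at P7, where the median counts per library were 959.5 in CB, 716 in CX and 273 in HIP. The 2-fold call against the mean of CX and HIP thus rested largely on HIP at that age.

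Klhl14, also called Printor, binds the dystonia protein torsin A. Its levels were low, and in CX the lowest, median and highest were 0.175, 0.586 and 2.99 CPM at E17.5 and 3.003, 4.86 and 7.28 CPM at P7, with 1.32, 1.34, 0.999, 0.837 and 0.935 CPM at P35. In HIP they were 0, 0.425 and 0.613 CPM at E17.5 and 2.33, 2.63 and 3.28 CPM at P7, with 0.778, 1.03, 0.828, 0.880 and 0.825 CPM at P35. In CB they were 2.35, 3.55 and 4.30 CPM at E17.5 and 0.356, 0.833 and 0.991 CPM at P7, with 0.214, 0.254, 0.391, 0.191 and 0.090 CPM at P35. The E17.5 and P7 libraries did not overlap in any region, with P7 the higher in CX and HIP and the lower in CB. The P35 CB values rest on 3 to 11 counts per library.

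Ivns1abp, which binds the influenza NS1 protein and stabilises actin, went down with age. In CX the lowest, median and highest WT levels were 460, 484 and 524 CPM at E17.5 and 229, 234 and 274 CPM at P7, with 150.7, 161.7, 140.2, 175.1 and 145.8 CPM at P35. The 3 periods did not overlap. In HIP the range went from 308 to 394 CPM at E17.5 to 161 to 185 CPM at P7, and in CB from 293 to 318 CPM to 238 to 287 CPM. The fall to P7 was past 2-fold in CX and HIP and not in CB. Klhl5 and Klhl20, the other actin-linked or neuronal members with values, were never called.

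Klhl2 and Klhl3 are the adaptors for WNK kinases, which control chloride transporters, and Klhl2 also binds actin. Klhl2 in HIP had a lowest, median and highest WT level of 69.5, 85.5 and 112.7 CPM at E17.5 and of 237, 260 and 307 CPM at P7, and the P35 libraries held 393.2, 437.9, 410.4, 389.8 and 421.9 CPM. In CX the levels were 63.5, 88.1 and 102.2 CPM at E17.5, then 140.5, 165 and 179.7 CPM, and 232.1, 249.2, 204.7, 227.6 and 226.9 CPM at P35. In CB they were 51.6, 56.2 and 60.5 CPM at E17.5, then 43.3, 53.0 and 60.9 CPM, and 70.2, 63.9, 58.4, 69.3 and 72.7 CPM at P35. The 3 periods did not overlap in HIP or CX, and P7 and P35 in CB lay below every CX and HIP library of the same age. Klhl3 rose from E17.5 to P7 in CX (1.32 on the log2 scale, from 10.8 to 20.4 CPM to 36.6 to 60.3 CPM) and in HIP (1.59 ± 0.15, from 7.64 to 17.8 CPM to 34.3 to 42.7 CPM). Both WNK adaptors were called. Wnk4, 1 of their substrates, rose over the same step in CX, where 2 of the 26 listed substrates and 22.9% of all genes rose. A link between adaptor and substrate RNA was not tested.

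**Figure D2:**
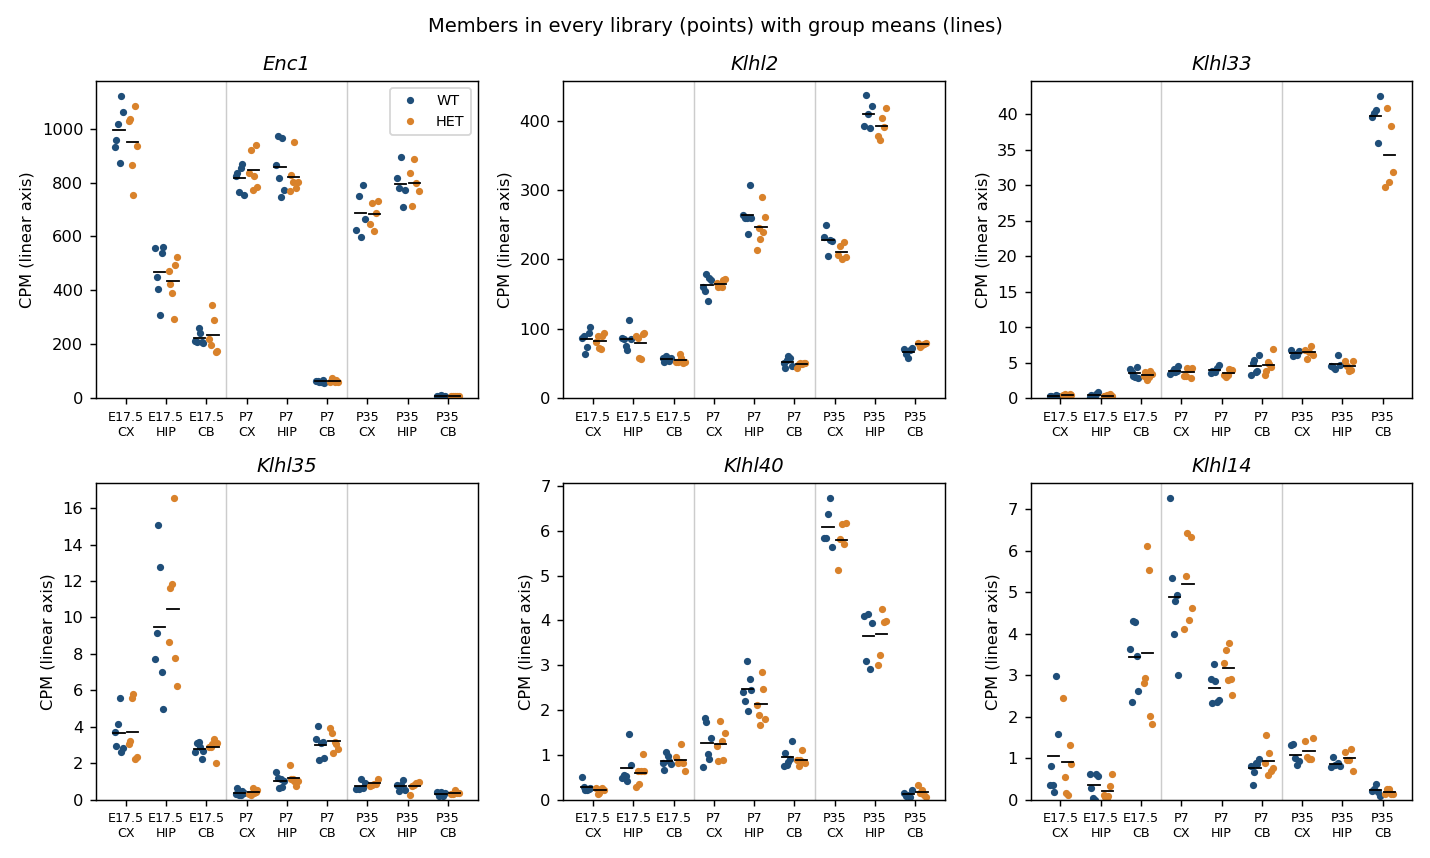
Levels in CPM of Enc1, Klhl2, Klhl33, Klhl35, Klhl40 and Klhl14 in every library, by period and region, with WT in blue and Cul3+/- (HET) in orange, a line at each group mean and a linear axis. WT and Cul3+/- points overlap in every group but P35 CB of Klhl2, where all Cul3+/- points lie higher, while Enc1 falls to under 10 CPM in P35 CB and Klhl33 rises to about 40 CPM there. The share of all genes whose genotypes separate so was not counted.

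Klhl9, Klhl13, Klhl18, Klhl21, Klhl22 and Klhl42 bring the ligase to the mitotic kinases Aurora A, Aurora B and Plk1 or to katanin. Of these 6, Klhl13, Klhl18 and Klhl21 were called and Klhl9, Klhl22 and Klhl42 were not. Klhl13 in CB had a lowest, median and highest WT level of 112.3, 123.4 and 125.9 CPM at E17.5 and of 61.9, 70.9 and 79.3 CPM at P7, and the P35 libraries held 31.5, 32.3, 27.6, 32.7 and 31.8 CPM. In CX it stood at 24.1, 29.2 and 34.7 CPM at E17.5 and at 39.4, 48.6 and 80.2 CPM at P7, with 24.6, 27.7, 24.4, 22.9 and 26.7 CPM at P35. At E17.5 CB exceeded the mean of CX and HIP by 1.61 ± 0.07 on the log2 scale, and the 3 periods did not overlap in CB. Klhl18 in CX went from 17.3, 22.7 and 29.8 CPM to 44.9, 48.5 and 61.0 CPM at P7, and in CB from 27.7, 29.4 and 30.8 CPM to 12.2, 14.5 and 17.1 CPM. The ages did not overlap in either region. The dividing-cell markers beside these members had WT medians of 383, 70.7 and 13.98 CPM in CX and of 675, 980 and 3.15 CPM in CB from E17.5 to P35, and their part in the levels was not tested.

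Klhl30, Klhl31, Klhl33, Klhl38, Klhl40, Klhl41 and Kbtbd12 were listed as the members known from skeletal or heart muscle, where Klhl40 and Klhl41 stabilise sarcomere proteins. None of the 7 passed the filter in all datasets, and Klhl33, Klhl38 and Klhl40 were called. The highest WT group mean was 39.8 CPM for Klhl33 (P35 CB) and 6.09 CPM for Klhl40 (P35 CX), and the other 5 stayed under 1 CPM in all 9 groups. Klhl33 (chromosome 14, 50888582-50897507, minus strand) in CB had a lowest, median and highest level of 2.81, 3.40 and 4.43 CPM at E17.5 and of 3.26, 4.39 and 6.06 CPM at P7, and the P35 libraries held 39.7, 40.2, 40.6, 35.9 and 42.6 CPM. In CX it went from 0.105, 0.319 and 0.427 CPM at E17.5, on 3 to 12 counts per library, to 3.39, 3.71 and 4.48 CPM at P7, and to 6.71, 5.88, 6.18, 6.13 and 6.67 CPM at P35. Every P35 CB library was thus far above every other WT library for Klhl33. In HIP it went from 0, 0.272 and 0.860 CPM to 3.48, 3.86 and 4.68 CPM, and to 4.58, 4.34, 4.14, 6.10 and 4.63 CPM.

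Klhl40 (chromosome 9, 121777607-121783818, plus strand) was also higher after E17.5 in CX and HIP, and was lowest in P35 CB, where Klhl33 was highest. In CX the lowest, median and highest levels were 0.210, 0.260 and 0.518 CPM at E17.5 and 0.725, 1.20 and 1.83 CPM at P7, and the P35 libraries held 5.85, 5.83, 6.37, 6.74 and 5.64 CPM. In HIP they were 0.415, 0.543 and 1.46 CPM at E17.5 and 1.97, 2.42 and 3.10 CPM at P7, with 4.10, 3.10, 4.14, 2.92 and 3.94 CPM at P35. In CB they were 0.658, 0.844 and 1.06 CPM at E17.5 and 0.759, 0.881 and 1.31 CPM at P7, with 0.142, 0.0761, 0.107, 0.0546 and 0.210 CPM at P35. Klhl40 rose to P7 in CX and HIP and again to P35 in CX, and fell to P35 in CB, where its 5 libraries held 2 to 7 counts each and 19 in all (95% Poisson interval 11.4 to 29.7, counting error only). Klhl38, which is known from muscle, was at or under 0.11 CPM at E17.5 and reached 0.704, 0.669, 0.687, 0.495 and 0.603 CPM in P35 CX. The 6 skeletal muscle markers summed to WT medians of 1.85, 13.9 and 17.4 CPM in CX, 2.17, 6.66 and 6.13 CPM in HIP and 6.83, 4.502 and 3.69 CPM in CB from E17.5 to P35. Ckm, Mylpf and Tnnt3 were at most 0.15, 0.43 and 0.52 CPM in any WT group mean, and Acta1 and Myh3 made up most of the sum in P35 CX at 8.52 and 6.65 CPM.

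Klhl25 directs the ligase to the translation repressor 4E-BP1 and was the only one of the 6 members listed for signalling and translation that was called. In CX its lowest, median and highest levels were 81.7, 88.1 and 107.5 CPM at E17.5 and 26.9, 31.6 and 38.3 CPM at P7, and the P35 libraries held 10.7, 11.9, 10.6, 11.8 and 11.5 CPM. In HIP it fell from 50.5 to 94.2 CPM to 23.7 to 32.04 CPM and then to 10.4 to 13.4 CPM, and in CB from 39.3 to 46.9 CPM to 24.7 to 45.2 CPM and then to 12.8 to 14.2 CPM. The 3 periods did not overlap in CX or HIP, while E17.5 and P7 overlapped in CB. Klhl15 (which acts on a PP2A subunit), Kbtbd2 (which acts on a PI3K subunit), Kbtbd4, Kbtbd7 and Kbtbd8 were not called. Klhl24, which acts on kainate receptors, Klhl12, which acts on the COPII coat and on Dishevelled, the spermatid gene Klhl10 and the B-cell gene Klhl6 were not called either. Klhl12 means lay between 49.5 and 63.2 CPM over the 9 WT groups.

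No role was listed for 14 members, of which 6 were called, and Klhl35 varied the most. In HIP its lowest, median and highest levels were 4.97, 8.43 and 15.1 CPM at E17.5 and 0.662, 1.07 and 1.51 CPM at P7, and the P35 libraries held 0.808, 0.496, 0.828, 1.07 and 0.538 CPM. In CX they were 2.63, 3.34 and 5.59 CPM and then 0.261, 0.336 and 0.630 CPM, with 0.612, 0.588, 1.12, 0.647 and 0.905 CPM at P35. In CB they were 2.23, 2.78 and 3.16 CPM and then 2.20, 3.14 and 4.05 CPM, with 0.427, 0.228, 0.426, 0.191 and 0.360 CPM at P35. Klhl35 (chromosome 7, 99466004-99474022, plus strand) thus fell from E17.5 to P7 in CX and HIP and from P7 to P35 in CB, without overlap in each case. Klhl23 fell from P7 to P35 in CX (252, 315 and 342 CPM to at most 114.9 CPM) without overlap, and in HIP likewise. Kbtbd11 rose over the same step in HIP, from 113.5, 118.8 and 125.3 CPM to 253.1, 243.7, 279.9, 252.1 and 262.4 CPM, and in CB from 89.6, 101.9 and 110.4 CPM to 206.6, 216.0, 225.2, 209.6 and 198.5 CPM. In CB, Kbtbd3 rose from 6.65, 7.34 and 7.53 CPM to 16.8, 16.4, 12.4, 15.9 and 15.3 CPM, Klhl26 from 18.3, 19.3 and 19.8 CPM to 39.0, 41.2, 42.7, 37.8 and 38.5 CPM, and Klhl29 fell from 42.2, 45.0 and 48.6 CPM to 16.01, 15.2, 25.3, 19.8 and 16.1 CPM. None of these groups overlapped. The P35 CB library of WT replicate 3 had the highest Klhl29, Klhl18 and Klhl3 of its group and summed granule cell markers of 2048 CPM, against 2420 to 2536 CPM in the 4 others. Klhl7, Klhl8, Klhl11, Klhl28, Klhl32, Klhl36 and Ipp were not called, and Klhl34 was too low to be tested between regions or periods.

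The direction of a change between periods was then compared between regions in 1 model of all WT libraries. A member was counted when it was called with opposite signs in a pair of regions and the period-by-region term had an adjusted p of at most 0.1. From E17.5 to P7, 2 of 43 members, Klhl14 and Klhl18, went in opposite directions in CB and CX (3.48% of all genes), 1, Klhl14, in CB and HIP (2.97%), and none in HIP and CX (0.363%). From P7 to P35, 2 members, Klhl35 and Klhl40, did so in CB and CX (1.17%), and none in CB and HIP (0.853%) or in HIP and CX (0.101%). The difference between CB and CX was −4.76 ± 0.53 for Klhl14 (adjusted p = 1.7e-09, edgeR's quasi-likelihood test) and −2.12 ± 0.13 for Klhl18 (adjusted p = 1.1e-15), and between CB and HIP −5.33 ± 0.57 for Klhl14 (adjusted p = 9.0e-10). In the later step it was −4.25 ± 0.32 for Klhl35 (adjusted p = 6.3e-13) and −5.31 ± 0.37 for Klhl40 (adjusted p = 7.0e-14).

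**Figure D3:**
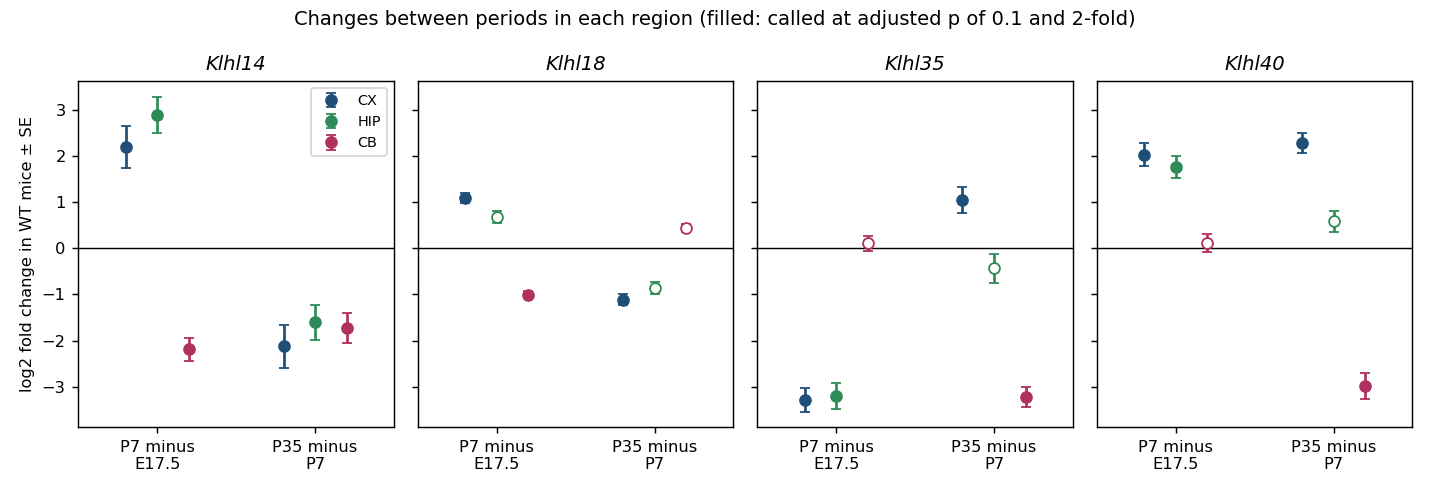
Log2 fold changes between periods, with standard errors, of Klhl14, Klhl18, Klhl35 and Klhl40 in WT CX, HIP and CB, where filled points passed the test and were at least 2-fold. Klhl14 and Klhl18 lie above 0 in CX and below 0 in CB for the step to P7, and Klhl35 and Klhl40 do so for the step to P35.

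The Cul3+/- libraries, which were not used above, repeated these comparisons. Of 486 member tests that could be made in both genotypes, 76 were called in WT and 78 in Cul3+/- mice, and 69 were called in both with the same sign, which is 90.8% of the WT calls and 88.5% of the Cul3+/- calls. Over all genes tested these shares were 86.3% and 86.6%. None of the members was called with opposite signs, and all 76 WT calls had the same sign in Cul3+/- mice, as did 99.5% of the WT calls over all genes.

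Promoter sequence was compared for the 39 members in the RefSeq promoter table (GRCm38.p6), over 300 bases from 250 before to 50 after the start. The 8 members not in it were Klhl8, Klhl14, Klhl24, Klhl30, Klhl38, Klhl42, Kbtbd11 and Enc1, and no promoter class was given to them. Those of the 8 that passed the count filter in all datasets had ranges of levels from 1.84-fold (Klhl42) to 129.5-fold (Enc1). A ratio of observed to expected CG pairs of at least 0.6 was found in 27 of the 39 members (69.2%), against 38.4% of the 27025 genes in the table. The members with a row in the counts are all protein-coding. The genes in the table were not limited to protein-coding ones, here or for the motifs below, so the shares compare unlike sets. The 12 members under it were Klhl1, Klhl3, Klhl4, Klhl6, Klhl10, Klhl13, Klhl31, Klhl33, Klhl34, Klhl35, Klhl40 and Klhl41. Among members that passed the count filter in all datasets, the 25 with a CG-rich promoter had a median range of levels of 2.16-fold (1.16 to 8.11), and 9 of them were called. The 6 with a CG-poor promoter had a median range of 6.80-fold (2.02 to 29.0), and 5 were called, all but Klhl6. Their median levels were 38.0 and 13.4 CPM, so that promoter class and level moved together, and their parts were not told apart. The share of all genes called in each promoter class was not counted. Whether this contrast is particular to the family was therefore not tested. The GC-box letters GGGCGG, searched on both strands, were in 27 members (69.2%) and in 38.2% of all promoters, the letters TATAAA in 5 (12.8%) and 15.7%, and the letters TGACGTCA in Klhl12 alone (2.56%) and in 2.03%.

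**Figure D4:**
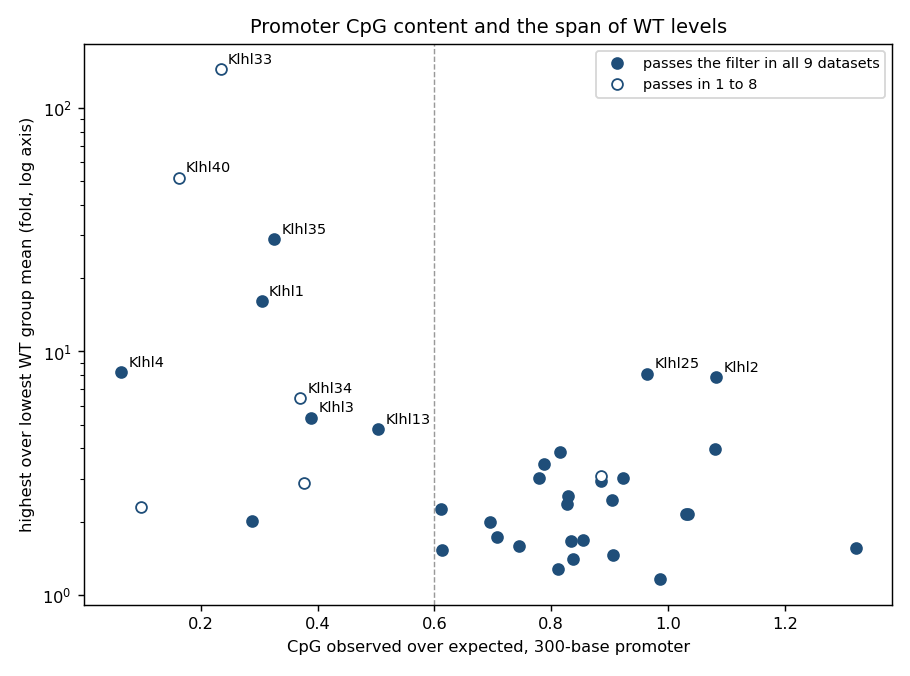
Range of WT levels of each member (highest over lowest group mean, log axis) against the ratio of observed to expected CG pairs in its promoter, for members in the promoter table. Members at or over 0.6 reach at most 8.11-fold among those that passed the filter in all datasets, and Klhl33, Klhl35 and Klhl40 lie at ratios of 0.234, 0.326 and 0.162.

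The second question was whether the loss of 1 Cul3 allele altered the expression of the adaptors. No member passed the test. In edgeR's quasi-likelihood test none of the 357 member tests in the 9 datasets was called at an adjusted p of 0.1. Cul3 was the only gene called in each dataset, which is 0.00603%, 0.00586% and 0.00568% of all genes in E17.5 CX, HIP and CB, 0.00566%, 0.00563% and 0.0057% at P7 and 0.00569%, 0.00584% and 0.00584% at P35. At an unadjusted p under 0.05 there were 14 of the 357 (3.92%), where 1.67% to 14.4% of all genes had such a p in the 9 datasets. DESeq2 called 1, Klhl13 in P35 CB, and the share of all genes that it called there is not given here. The largest log2 difference was 0.428 in size, and the median standard error was 0.0694. The 6 P35 CB members with p under 0.05, of 37 tested, stood in a dataset where 14.4% of all genes had such a p.

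Klhl13 in P35 CB had the smallest adjusted p, at 0.293 in edgeR's quasi-likelihood test. The WT libraries held 31.5, 32.3, 27.6, 32.7 and 31.8 CPM and the Cul3+/- libraries 41.6, 34.4, 40.7, 35.4 and 37.5 CPM. All 5 Cul3+/- values were above the WT values, with a log2 difference of 0.26 ± 0.07, and the adjusted p in DESeq2 was 0.0819. The share of all genes whose genotypes separate in this way in P35 CB was not counted. Klhl13 was higher in Cul3+/- mice in 8 of the 9 datasets. So were Klhl35 and Ivns1abp, while Klhl12, Klhl18 and Klhl42 were lower in 8 of the 9. The share of all genes with the same sign in 8 of the 9 was not counted. Each mouse gave a library of every region, so the 9 datasets are not independent repeats. Klhl13 also had the smallest p of the members in E17.5 CX (0.27 ± 0.12). Elsewhere the member with the smallest p was Klhl26 in E17.5 HIP (−0.17 ± 0.09), Klhl12 in E17.5 CB (−0.11 ± 0.05), Ivns1abp in P7 CX (0.12 ± 0.07), Klhl14 in P7 HIP (0.23 ± 0.13), Klhl1 in P7 CB (0.16 ± 0.07), Kbtbd8 in P35 CX (−0.16 ± 0.06) and Klhl26 in P35 HIP (0.13 ± 0.04). Their adjusted p lay between 0.796 and 0.997 in edgeR's quasi-likelihood test.

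Averaged over the 9 datasets by limma-voom, with libraries of 1 mouse as correlated samples, none of the 46 members was called, and 14 of 20859 genes were (0.0671%). Of the members 20 were higher and 26 lower in Cul3+/- mice, with a median log2 difference of −0.0046, and 33 had a 95% interval within 0.2 of 0 on the log2 scale. The 5 members with the smallest p were Klhl38 (−0.52, 95% interval −0.89 to −0.15), Klhl13 (0.095), Klhl3 (−0.12), Klhl20 (−0.038) and Klhl42 (−0.041). The first 4 of them had an unadjusted p under 0.05 (8.70% of members, and 5.44% of all genes), and the adjusted p was 0.63 for Klhl38 and 0.761 for Klhl13. Klhl38 rests on well under 1 CPM in every group. In P35 CX its Cul3+/- libraries held 0.459, 0.820, 0.510, 0.333 and 0.685 CPM, which overlap the WT values given above.

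**Figure D5:**
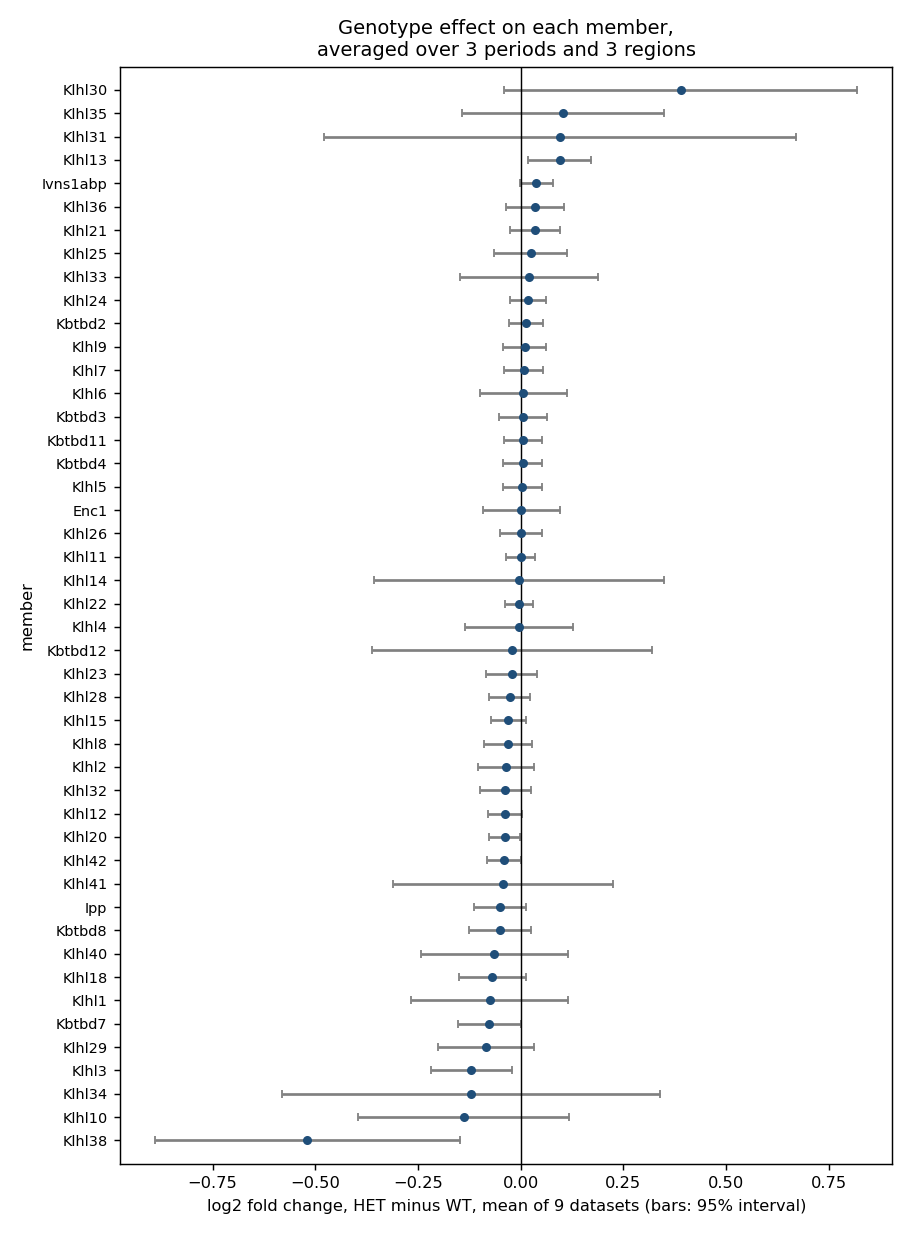
Mean log2 difference between Cul3+/- (HET) and WT of each of the 46 members, averaged over the 9 datasets, with 95% intervals from limma-voom. Most intervals include 0 and lie within 0.2 of it, and those of low members such as Klhl38 are the widest.

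The genotype difference was also compared between regions and between periods. No member was called for a genotype-by-region term at E17.5 (0% of all genes), P7 (0%) or P35 (0.00525%), nor for a genotype-by-period term in CX (0%), HIP (0%) or CB (0%), by edgeR's quasi-likelihood test. At an unadjusted p under 0.05 there were 10 of 43 members for region at P35 (15.8% of all genes), 5 of 42 for period in CB (13.2%), 1 of 41 for period in HIP (4.09%) and none in the other 3 tests (2.10% to 4.57%). Klhl2 had the smallest adjusted p, 0.255 in edgeR's quasi-likelihood test, for region at P35. In P35 CB the Cul3+/- libraries held 78.9, 73.9, 77.2, 78.2 and 79.2 CPM of Klhl2, above all WT values, whereas in P35 CX they held 207.1, 219.0, 200.3, 224.8 and 203.4 CPM and overlapped the WT values. The share of all genes whose genotypes separate so in P35 CB was not counted. In that dataset 14.4% of all genes had an unadjusted p under 0.05 for genotype in edgeR's quasi-likelihood test.

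Other genes of the pathway were followed as lists. Of 29 other genes of Cul3 ligases (Cul3 itself, Keap1, Rbx1, Nedd8, KCTD and RHOBTB genes and others), Cul3 alone was called for genotype, in all 9 datasets and in the averaged fit, among 261 tests. Of 26 known substrates and partners of the adaptors none was called in 231 tests or in the averaged fit. Between regions of WT brain, at most 1 of the 29 genes was called in either direction in a comparison, where 3.35% to 16.3% of all genes were, with Kctd13 lower in CB at P7 and at P35 and Abtb2 higher in CB at P7. Between periods Rhobtb3 fell to P7 in CX and HIP, and Kctd5 and Rhobtb1 fell from P7 to P35 in all 3 regions. Among the 26 substrates, 6 fell and 2 rose to P7 in CX, where 14.5% of all genes fell and 22.9% rose, and those that fell included the mitotic kinases Aurka, Aurkb and Plk1, which fell in HIP too and were not called over this step in CB. From P7 to P35 the 3 kinases fell in all 3 regions. The 5 of 26 substrates higher in CB at P7, where 12.6% of all genes were, were these 3 kinases, Katna1 and Pml.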

How the data were processed

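Total RNA of single brain regions was ribodepleted and sequenced with a stranded kit. Per the submitters' processing notes and the study's methods, the authors trimmed reads with Cutadapt 1.14, aligned them to GRCm38.p5 (mm10) with STAR 2.5.3a and deposited gene-level expected counts from RSEM 1.3. How strand was set in the counting is not given in the sources used here. Of the deposited expected counts, 5.76% were not whole (tolerance 1e-06), and all were rounded to whole numbers. Among the members, 98.0% of the Kbtbd7 values and 4.90% of the Klhl13 values in the libraries used were not whole. The values of the other members were whole. Of 53465 gene IDs, 53274 had a symbol. The 47 members and all lists were chosen with earlier results of these data known. The named members were those with the 3 largest folds per direction among the calls of each comparison, the 5 highest per kilobase, those under the filter everywhere, and those with the smallest p for genotype, 1 per dataset and 5 on average.

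Counts were tested with edgeR 4.0.16 (TMM, quasi-likelihood, filterByExpr at 10 counts and 15 in total, Benjamini-Hochberg over all genes tested), limma 3.58.1 (voom and duplicateCorrelation) and, as an alternative, DESeq2 1.42.0, in R 4.3.3. The FDR of 0.1 is that of the study's methods, while the 2-fold minimum between regions and periods was set here. Steps were tested on simulated data first. Alternatives covered normalization, filter, tool, factors of unwanted variation, pairing, left-out mice and the disputed mice. No library was a copy of another. Replicate numbers were taken to pair WT and Cul3+/- libraries where the deviations from the group means correlated over 0.1 in every pair, which held in E17.5 CX alone (0.113 to 0.759). All pairs were also above 0 in P7 CX (0.0873 to 0.331) and P35 CX (0.0123 to 0.271).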

Additional observations from a re-analysis of the deposited data

Results flagged for a closer look

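In 135 groups of WT libraries (15 members in 9 groups), 10 had a highest or lowest library whose gap to the nearest one was large for the range of the group by Dixon's criterion, which chance gives in about 1 in 20 groups. In P35 CX, Klhl18 was lowest in replicate 1 at 20.54 CPM (others 23.11 to 23.68). In P35 HIP, replicate 5 had the lowest Klhl23, 93.99 CPM (others 114.2 to 117.9), and the highest Klhl33, 6.098 CPM (others 4.139 to 4.625), and its choroid plexus markers summed to 1537 CPM. Klhl40 was highest in E17.5 CX replicate 1 at 0.5179 CPM (others 0.2097 to 0.293) and in E17.5 HIP replicate 5 at 1.464 CPM (others 0.4145 to 0.7646). Kbtbd3 was highest in P7 HIP replicate 5 at 9.618 CPM (others 7.842 to 8.422) and in P35 CX replicate 1 at 11.76 CPM (others 9.174 to 9.655). Kbtbd11 was lowest in E17.5 CX replicate 3 at 40.04 CPM (others 45.29 to 47.5), highest in E17.5 CB replicate 6 at 86.83 CPM (others 74.17 to 78.55) and highest in P35 CX replicate 2 at 150.8 CPM (others 129.1 to 134.6).

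The change between periods differed between regions, by the test of the difference itself, for 4 members that were called with opposite signs. From E17.5 to P7, the log2 change in CB minus that in CX was −4.759 for Klhl14 and −2.115 for Klhl18, and the change in CB minus that in HIP was −5.333 for Klhl14. From P7 to P35, the change in CB minus that in CX was −4.247 for Klhl35 and −5.308 for Klhl40.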

How the results depend on the processing

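No comparison reversed in any alternative. For genotype, 0 members were called in the 9 datasets with upper-quartile normalization, without the low-count filter, with 3 factors of unwanted variation, with the disputed mice kept under either genotype, and, chosen after seeing the data, without libraries rich in choroid plexus markers or without the E17.5 S3 mice. DESeq2 called 1 (Klhl13 in P35 CB), for which the share of all genes called by DESeq2 is not given here. With the replicate number as a block, 0 members were called, and leaving out each replicate number gave 0 to 0. In the averaged fit 0 were called under each alternative, and Klhl38 went from −0.519 to −0.334 without P7. Without the mouse as a replicate block, 30 region calls were made in place of 29, all 29 among them.

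A 1.5-fold minimum in place of 2-fold gave 62 region calls in place of 29 and 100 period calls in place of 49. The shares of all genes called at 1.5-fold are not given here, so whether the members differ from all genes there cannot be told. For CB against forebrain it gave 15 calls at P7 and 12 at P35, and for HIP against CX 9, 10 and 6 at E17.5, P7 and P35. For the step to P7 it gave 23, 19 and 8 calls in CX, HIP and CB, and for the step to P35 it gave 17, 12 and 21. For HIP against CX at E17.5, upper-quartile normalization gave 5 calls and Cul3+/- mice 5, in place of 3, and for CB against forebrain at P35 Cul3+/- mice gave 11, in place of 7. Of the 78 WT calls, 78 remained with upper-quartile normalization, 76 without the low-count filter, 75 with DESeq2, 69 in Cul3+/- mice and 76 without the libraries rich in choroid plexus markers. Without the S3 mice 53 of 59 remained. The 4 members of opposite direction were 4 with upper-quartile normalization and 3 (Klhl14, Klhl35 and Klhl40) without the filter, in Cul3+/- mice, without choroid-rich libraries and without the S3 mice, where Klhl18 fell just short of 2-fold. The low-count filter held the median of all genes from E17.5 to P7 in CX at 0.01, and it was 0.16 without the filter.

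Leaving out 1 WT mouse in turn gave 28 to 33 region calls in all. CB against forebrain gave 6 to 8 at E17.5, 7 to 8 at P7 and 7 to 8 at P35, and HIP against CX gave 2 to 7, 3 to 5 and 1 to 3. The 7 came without WT replicate 1 of E17.5, where Klhl14 entered at −1.75, and the 5 without P7 mice. Period calls numbered 47 to 52 in all. The step to P7 gave 11 to 13 in CX, 9 to 11 in HIP and 2 to 3 in CB, and the step to P35 gave 8 to 9, 5 to 5 and 11 to 12. In all, 8 of the 78 calls ended in at least 1 of these fits, each by falling under 2-fold.

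Members under 1 CPM in all 9 WT groups (Klhl10, Klhl30, Klhl31, Klhl34, Klhl38, Klhl41 and Kbtbd12) or in 2 to 5 of them (Klhl14, Klhl33, Klhl35 and Klhl40) rest there on few counts per library. For the 36 members that passed the filter in all datasets, the median standard error of 0.0667 for genotype sets the size of difference that 5 or 6 mice per group can show.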
